A study of Mus musculus with 5 samples.

Results

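Of the 52542 gene rows in the tables, 8 are described here: the ferritin heavy and light chains *Fth1* and *Ftl1*, the exporter *Slc40a1*, the ferroxidase *Cp*, the haem enzymes *Hmox1* and *Blvrb*, the phagosomal transporter *Slc11a1* and the transferrin receptor *Tfrc*. They were chosen by symbol as genes of iron storage, export and haem breakdown, and 16856 genes in all had at least 1 UMI (unique molecular identifier, the count of 1 captured mRNA) in the cells kept.

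The cells came from brains of DM-hTAU mice, which carry human tau with a pair of mutations under the natural tau promoter, at 9 months of age. The labels give 1 group of 5 libraries, each a plate of 384 wells, all labelled aPDL1 (the antibody against PD-L1) and selected as CD45+ CD11b+, with the sort on CD45highCD11bhigh in the methods. The methods' text also speaks of mice given the isotype antibody IgG2b, but no well carries that label, so no treatment was compared. The sample labels name brain as the tissue, but the preparation given beside them describes thymus and gut, a conflict that was not settled. No label ties a library to a mouse, so p-values measure only the spread between libraries, which may be technical.

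Cells take up iron bound to transferrin through the transferrin receptor, and macrophages also gain it by breaking down haem. Haem oxygenase 1 (*Hmox1*) opens the haem ring and releases iron, and *Blvrb* encodes biliverdin reductase B, an enzyme that reduces a form of biliverdin. Spare iron is stored in shells of ferritin heavy and light chains, and leaves the cell only through ferroportin (*Slc40a1*), with ceruloplasmin (*Cp*) oxidising it for loading onto transferrin. The iron regulatory proteins bind a hairpin, the iron responsive element, in the untranslated regions (UTRs) of several of these mRNAs. In the 5′ UTR they block translation when iron is low, and in the 3′ UTR they keep the mRNA from decay.

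The hairpin is shown because it is what ties the storage, export and uptake genes to 1 control, and it separates the 8 genes into those that carry it and those that do not. The pattern searched, on the mRNA strand of 1 GENCODE transcript a gene, was a bulged C, 5 bases, the loop CAGTGN of 6 bases, and 5 bases that pair with the first 5. The sequences are 26 bases long, 5′ to 3′, with the loop in capitals, and positions are those of GRCm38.
Fth1, 5′ UTR, chr19:9982734-9982759, plus strand: cctgcttcaaCAGTGCttgaacggaa
Ftl1, 5′ UTR, chr7:45459780-45459805, minus strand: cttgcttcaaCAGTGTttgaacggaa
Slc40a1, 5′ UTR, chr1:45925466-45925491, minus strand: acttcagctaCAGTGTtagctaagtt
Tfrc, 3′ UTR, chr16:32631221-32631246, plus strand: ttatcggaagCAGTGCcttccataat
Tfrc, 3′ UTR, chr16:32631600-32631625, plus strand: ttatcgggagCAGTGTcttccataat
Tfrc, 3′ UTR, chr16:32631665-32631690, plus strand: atatcggagaCAGTGAtctccatatg
Tfrc, 3′ UTR, chr16:32631712-32631737, plus strand: ttatcgggaaCAGTGTttcccataat
Among all protein-coding genes, whose UTRs differ in length, 0.102% of 20596 5′ UTRs and 0.535% of 20760 3′ UTRs held the pattern. The UTRs of *Hmox1*, *Blvrb*, *Slc11a1* and *Cp* held no match, which says only that these letters are not in those windows. On the same build these genes lie at chr8:75093621-75100589, chr7:27447978-27466144, chr1:74375195-74386062 and chr3:19957054-20009145, all on the plus strand. The tables count 3′ ends of mRNA, so they read the level of these mRNAs and not their translation.

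Cells with at least 500 UMIs were kept, 825 in all of the 380 wells with a cell in each library, from 68 to 314 a library, with library medians of 651 to 1268 UMIs a cell. Libraries 3 and 5 held 285 and 314 of them. Cells were then gated on summed marker genes, none of which is among the 8, and class names stand for these gates. Of 825 cells, 656 fell into 1 class: 242 microglia below the activation gate (called other microglia), 31 activated microglia, 110 border-type macrophages, 134 MHC class II macrophages, 42 dendritic cells, 67 monocytes and 30 neutrophils. Another 67 passed several gates and 102 none. The gates used these sums, so they describe the classes and are no check of their names: the microglia markers summed to 304 UMIs per 10000 in other microglia and 66.4 in MHC class II macrophages, and the border markers to 80.3 in border-type macrophages and 5.16 in other microglia. In neutrophils the microglia markers still summed to 30.7 UMIs per 10000. *Mpo*, a gene of immature myeloid cells, led the monocytes by fold.

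Levels are given as UMIs per 10000 UMIs of a cell class, either over all its cells, with an exact Poisson 95% interval for counting error only, or per library for libraries with at least 5 cells of the class. As each UMI is 1 mRNA end, no division by length is needed to set genes side by side. Where libraries of a class are said to lie apart from those of other microglia, the share of all genes that do so was not counted. With so few libraries such a gap can arise without a difference, and it is a description only. The 2 ferritin chains stood far above the rest, with 3480 UMIs of *Fth1* and 2161 of *Ftl1* (ranks 23 and 38 among all genes). *Slc11a1* had 267 UMIs, *Cp* 132, *Hmox1* 86, *Blvrb* 70, *Slc40a1* 65 and *Tfrc* 6. The 20 empty wells held 320 UMIs in all, with 1 each of *Fth1*, *Ftl1* and *Cp*.

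**Figure D1:**
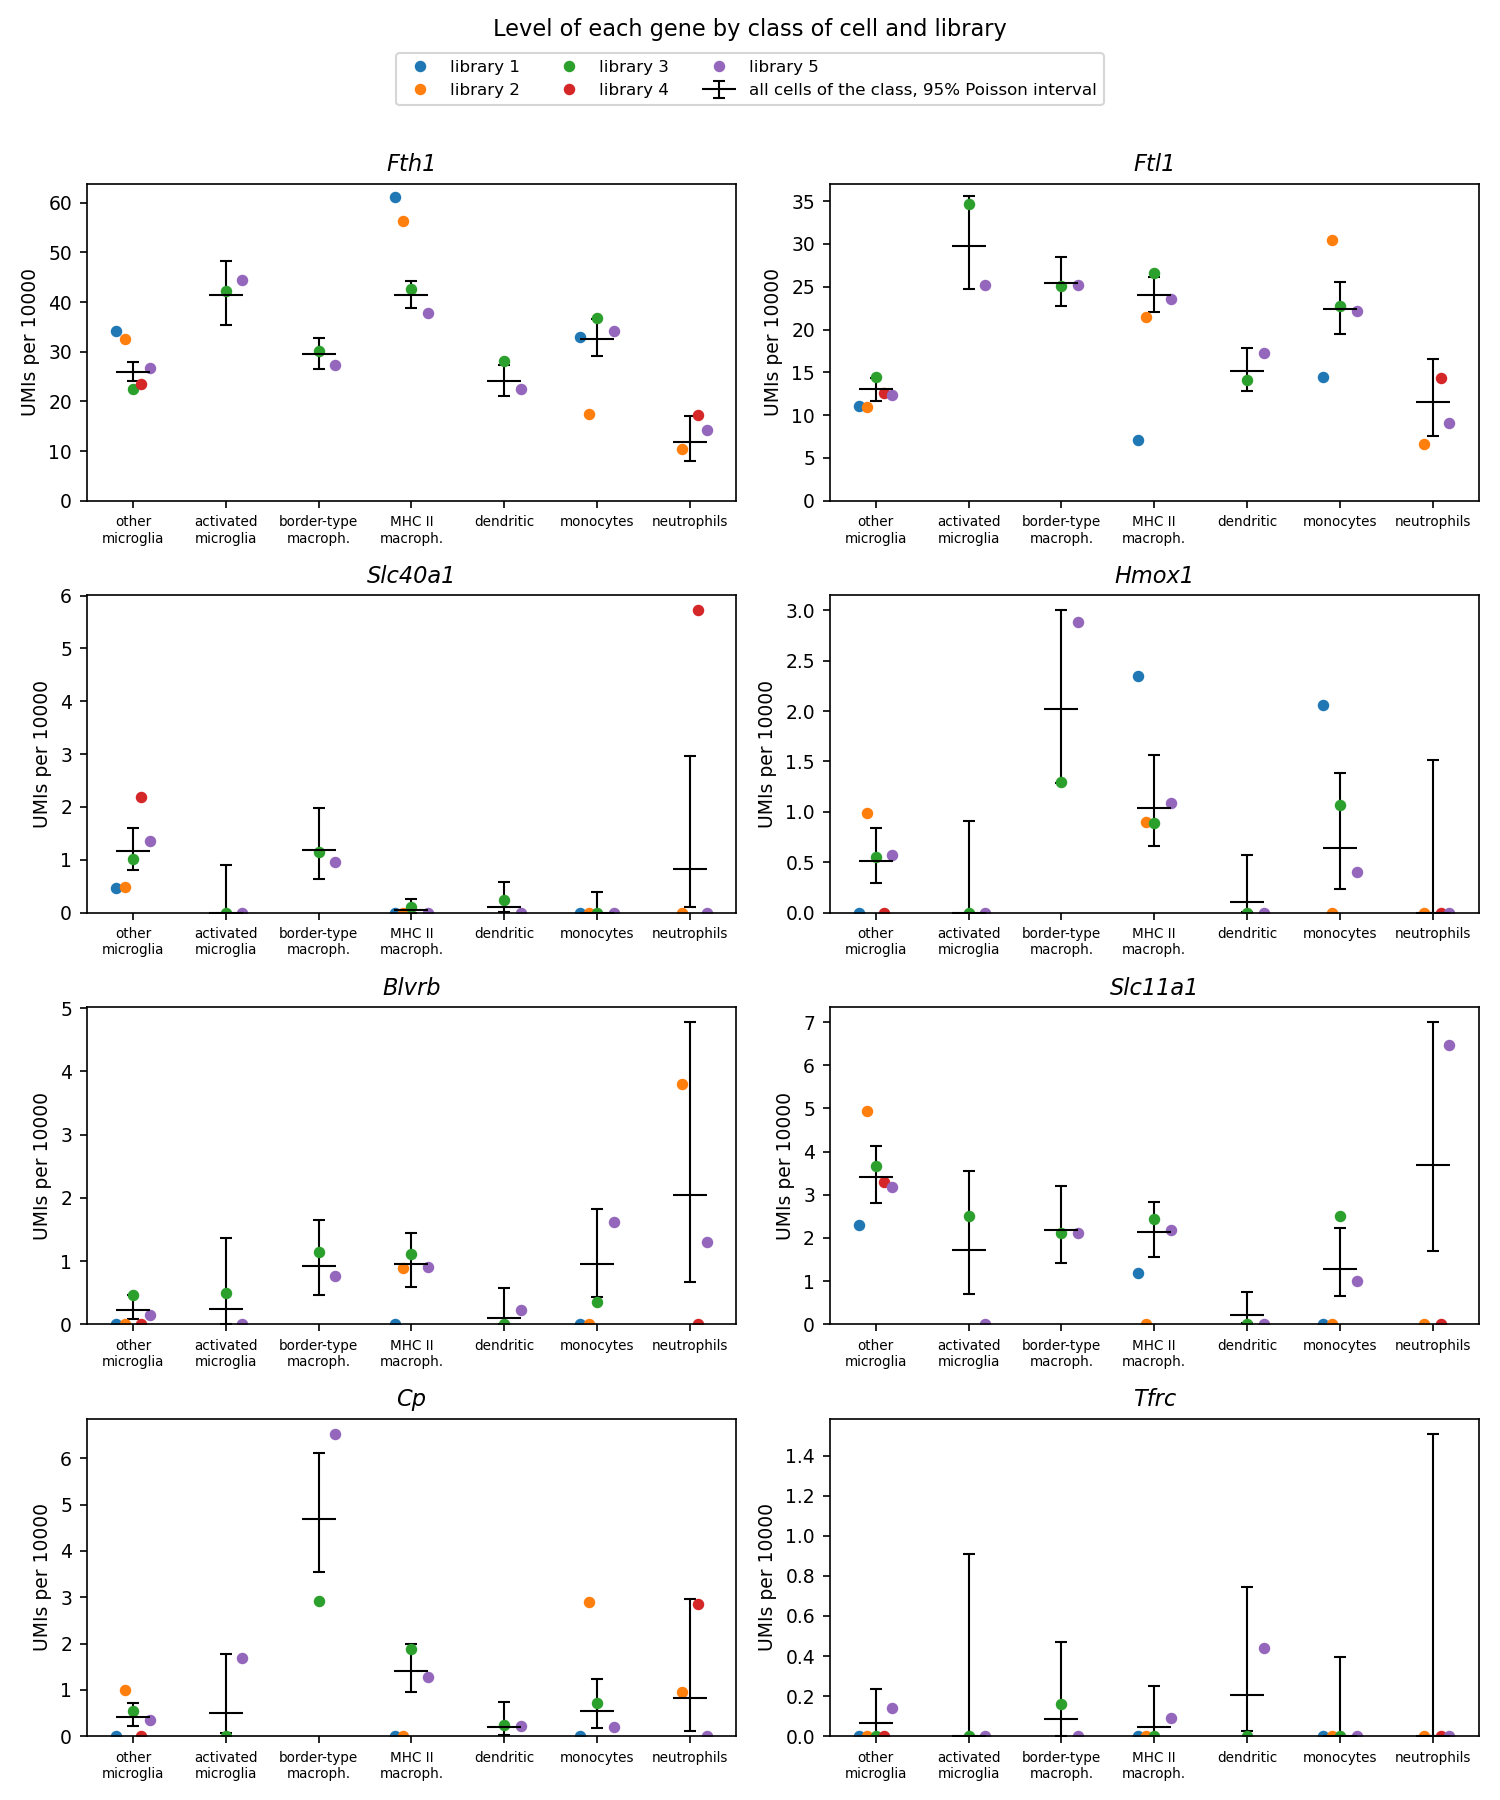
Level of each gene (y axis, UMIs per 10000) in the 7 gated classes (x axis). Coloured points are libraries with at least 5 cells of the class, black dashes all cells of the class with exact Poisson 95% intervals. *Fth1* was above every other-microglia library in all 4 libraries of MHC class II macrophages, and *Cp* in both libraries of border-type macrophages.

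Each class was tested against other microglia with edgeR's quasi-likelihood test on UMI sums per library and class, over 750 genes that passed the filter on low counts, with Benjamini-Hochberg adjusted p-values and a threshold of 0.05. All 6 comparisons share the other-microglia sums, so they are not independent of each other. Only *Fth1*, *Ftl1* and *Slc11a1* of the 8 genes passed the filter, which asked for at least 4.77 UMIs per 10000 in 2 of the 22 sums. *Fth1* and *Ftl1* did so in all 22, and *Slc11a1* in only 2, library 2 of other microglia and library 5 of neutrophils. Of these 3, none was called in activated microglia (0.8% of all genes tested were), none in border-type macrophages (5.87%), none in MHC class II macrophages (13.1%), 1 in dendritic cells (33.7%), 1 in monocytes (23.5%) and none in neutrophils (34.5%). Both calls were of *Slc11a1* and both were falls. At an unadjusted p under 0.05 stood 1 of the 3 genes in each comparison. Compositions differed between classes: without the TMM factor the median log2 fold change of all genes moved by 0.25 in activated microglia, 0.26 in MHC class II macrophages, 0.37 in dendritic cells, 0.34 in monocytes and −0.22 in neutrophils, and by 0.09 in border-type macrophages. With it that median was −0.33 in activated microglia, −0.28 in dendritic cells and −1.25 in neutrophils, and between −0.06 and 0.01 in the other comparisons.

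*Fth1*, the ferritin chain that oxidises iron on its way into the shell, was highest in MHC class II macrophages and activated microglia and lowest in neutrophils. In other microglia the 5 libraries gave 34.2, 32.6, 22.6, 23.6 and 26.8 UMIs per 10000. In MHC class II macrophages libraries 1, 2, 3 and 5 gave 61.2, 56.4, 42.6 and 37.7. The groups do not overlap, and the class was above other microglia of the same library in 4 of 4 libraries, yet the edgeR log2 fold change of 0.46 (SE 0.27) had an adjusted p of 0.285. In activated microglia libraries 3 and 5 gave 42.2 and 44.5, again above every library of other microglia, with a log2 fold change of 0.43 (SE 0.36, adjusted p = 0.76). The value for activated microglia turned to −0.41 with no filter and TMM factors from all genes, but was 0.42 with no filter and factors from the filtered genes. Border-type macrophages (30.2 and 27.3 in libraries 3 and 5) and dendritic cells (28.2 and 22.5) lay within the range of other microglia, apart from library 5 of dendritic cells just below it. With sums of 3 cells *Fth1* was called lower in dendritic cells (−1.12, adjusted p = 0.0307, 29.4% of genes called). Monocytes spread from 17.4 to 36.8 over 4 libraries. Neutrophils lay lowest, with 10.4, 17.2 and 14.3 in libraries 2, 4 and 5, below every library of other microglia. Their log2 fold change was −0.81 (SE 0.40, adjusted p = 0.109), against a median of −1.25 for all genes in that comparison. This value passed the threshold without the TMM factor (−0.99, adjusted p = 0.0486, 39.9% of genes called) and with no filter and TMM factors from all genes (−1.88, adjusted p = 0.0022, 1.77% called). With no filter and factors from the filtered genes it was −0.81 and not called (adjusted p = 1, 0.899% called), and it turned to 0.09 with DESeq2 and to 0.55 with cells of at least 300 UMIs. Neutrophil marker genes took 3170 of every 10000 UMIs in those cells.

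The light chain *Ftl1*, which helps the iron core form, was near 13 per 10000 in other microglia, where the libraries gave 11.1, 10.9, 14.5, 12.6 and 12.4. It stood higher in both libraries of activated microglia (34.7 and 25.2) and both of border-type macrophages (25.1 and 25.2), with no overlap. The edgeR log2 fold changes were 0.89 (SE 0.35, adjusted p = 0.418) and 0.78 (SE 0.33, adjusted p = 0.199), neither past the threshold. The border-type value passed it when library 1 was left out (1.01, adjusted p = 0.0306, 5.93% of genes called). DESeq2 put the activated value past it, at 1.18 with an adjusted p of 0.0294 and 0.933% of genes called, where the other alternatives gave 0.16 to 1. MHC class II macrophages gave 7.06, 21.5, 26.6 and 23.6 in libraries 1, 2, 3 and 5, so that the class overlapped with other microglia through library 1, which held 6 UMIs of *Ftl1* in 12 cells. The log2 fold change was 0.46 (SE 0.28, adjusted p = 0.304), and 0.77 (adjusted p = 0.0455, 9.75% of genes called) with cells of at least 1000 UMIs. In monocytes *Ftl1* was above other microglia of the same library in 4 of 4 libraries (14.4, 30.5, 22.8 and 22.2), with a log2 fold change of 0.48 (SE 0.30, adjusted p = 0.24) that passed the threshold only without the TMM factor (0.86, adjusted p = 0.0256, 28.5% of genes called). Dendritic cells (14.1 and 17.3) and neutrophils (6.64, 14.3 and 9.07) overlapped with other microglia.

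**Figure D2:**
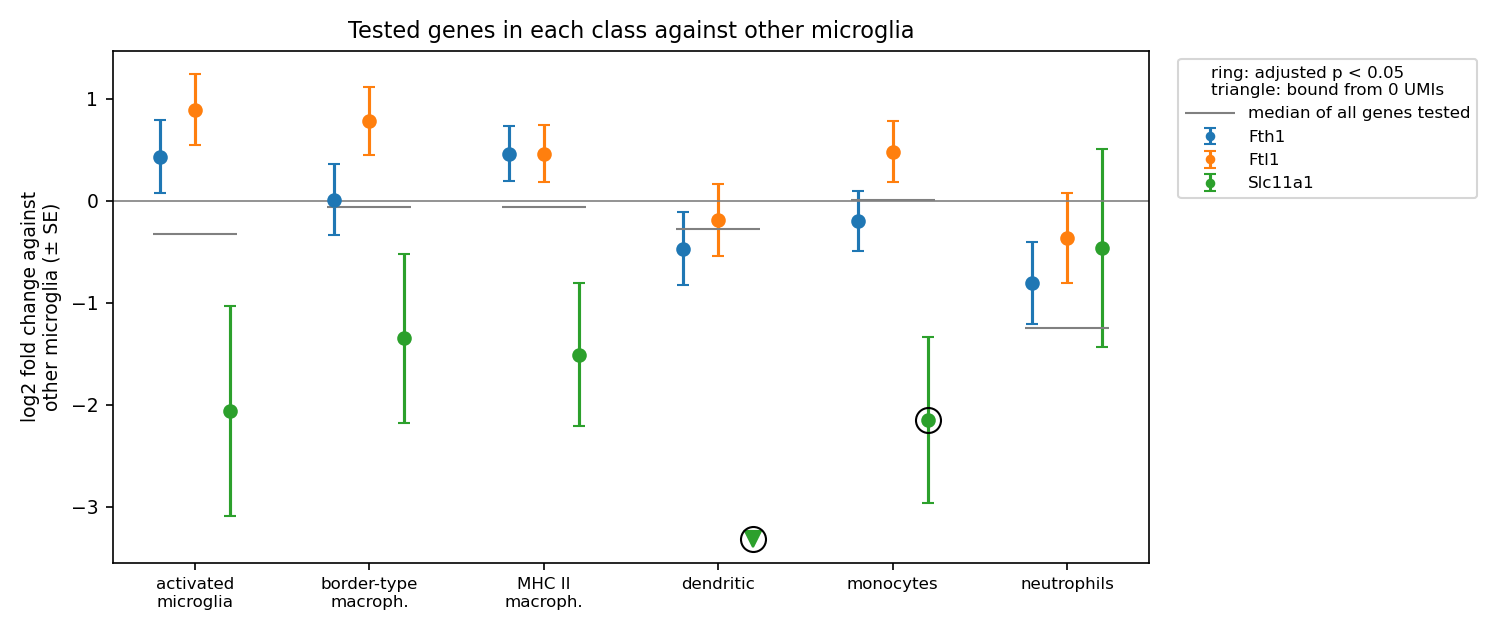
Log2 fold change against other microglia (y axis) with its SE for the 3 genes that passed the filter, in 6 classes (x axis), from edgeR. Grey dashes are the median of all 750 genes, rings mark an adjusted p under 0.05, and the triangle is the bound of −3.32 that 0 UMIs of *Slc11a1* in dendritic cells allow. Both ringed values are of *Slc11a1*.

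The 2 chains did not keep 1 ratio. Over all cells of a class there were 2.01 UMIs of *Fth1* for each of *Ftl1* in other microglia, 1.73 in MHC class II macrophages, 1.59 in dendritic cells, 1.46 in monocytes, 1.39 in activated microglia, 1.16 in border-type macrophages and 1.04 in neutrophils, where the libraries with at least 5 cells gave 1.2 to 1.57. In libraries 3 and 5 the ratio was 1.55 and 2.17 in other microglia against 1.2 and 1.08 in border-type macrophages, which also lay below every other library of other microglia. It also differed between libraries, at 2.85 and 2.31 over all cells of libraries 1 and 2 and 1.5, 1.43 and 1.55 in libraries 3, 4 and 5. No test was run on the ratio. The tables also hold 14 rows of ferritin pseudogenes and like genes, of which 5 had UMIs, with 988 for *Fth-ps2* and 166 for *Ftl1-ps1*. As these copies are close to the parent genes, reads could be split between them, and the levels of both chains are uncertain by that much. Adding the pseudogene rows to their parents left none of the ferritin tests past the threshold.

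**Figure D3:**
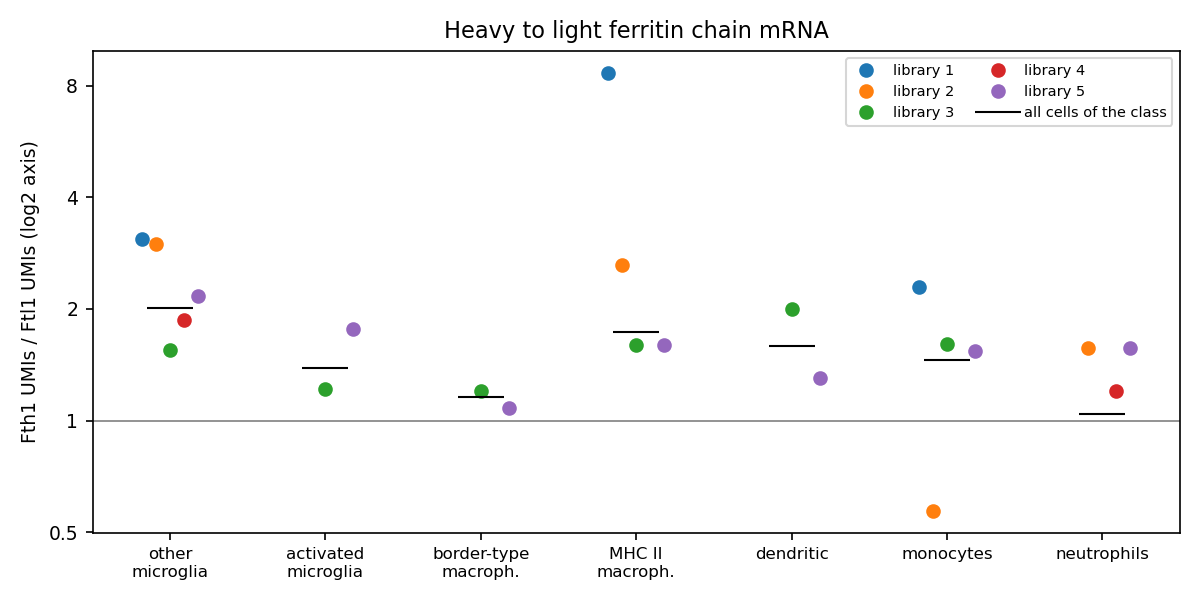
UMIs of *Fth1* divided by UMIs of *Ftl1* (y axis, log2 axis) in the 7 classes (x axis). Points are libraries with at least 5 cells, black dashes all cells of the class. Border-type macrophages lie near 1 and other microglia between 1.55 and 3.08. The point at 8.67 is library 1 of MHC class II macrophages, which rests on 6 UMIs of *Ftl1*.

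Ferroportin mRNA (*Slc40a1*), the only known iron exporter, was found mostly in other microglia and border-type macrophages. Other microglia held 36 UMIs of it in 23 of 242 cells, or 1.16 per 10000 (interval 0.812 to 1.61), and all 5 libraries had some, at 0.462, 0.493, 1.01, 2.19 and 1.35. Border-type macrophages held 14 UMIs, or 1.18 per 10000 (0.643 to 1.97), with 1.14 and 0.96 in libraries 3 and 5. MHC class II macrophages held 1 UMI in 220763 (0.0453 per 10000, 0.00115 to 0.252). Their libraries 1, 2, 3 and 5 gave 0, 0, 0.111 and 0, below every library of other microglia. Libraries 1 and 2 held only 8494 and 11173 UMIs of the class, and other microglia there 1 UMI of *Slc40a1* each. A value of 0 in those libraries cannot show a lower level, so the contrast rests on libraries 3 and 5. Monocytes held 0 UMIs in 93849. Over the 4 libraries of that comparison a floor of 3 counts over the group makes the level at least 3.26-fold lower than in other microglia of the same libraries, 32 UMIs or 1.10 per 10000. That bound leaves out the counting error of other microglia. Activated microglia held 0 UMIs in 40578, and their upper limit of 0.909 per 10000 overlaps the interval of other microglia, so a difference was not detectable. Dendritic cells held 1 UMI in 97028, and the 2 UMIs of neutrophils came from 1 cell. After thinning each cell to 500 UMIs, 4.96% of other microglia (exact interval 2.59 to 8.50), 3.64% of border-type macrophages and 0.746% of MHC class II macrophages had a UMI (9.50%, 8.18% and 0.746% unthinned, at median depths of 1027.5, 934 and 1171 UMIs).

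*Slc40a1* did not pass the filter. In the edgeR fit with no filter, over 16126 genes, it was not called in any class. Its lowest unadjusted p-values with factors from all genes were 0.002 in MHC class II macrophages (adjusted p = 0.33) and 0.00203 in monocytes (adjusted p = 0.143). The levels above are therefore a description of counts.

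*Cp*, the ferroxidase that works beside ferroportin, was highest in border-type macrophages. These held 56 of the 132 UMIs, in 29 of 110 cells, at 4.70 per 10000 (interval 3.55 to 6.11). Other microglia held 13 UMIs, at 0.419 (0.223 to 0.716), and MHC class II macrophages 31, at 1.40 (0.954 to 1.99). In libraries 3 and 5 the border-type macrophages gave 2.92 and 6.53 per 10000, above the 0, 0.986, 0.549, 0 and 0.355 of other microglia. In MHC class II macrophages the UMIs came from libraries 3 and 5 only, at 1.89 and 1.27. Dendritic cells (0.206), monocytes (0.533), activated microglia (0.493) and neutrophils (0.819) held 2 to 5 UMIs each. After thinning, 15.5% of border-type macrophages and 2.07% of other microglia had a UMI of *Cp* (26.4% and 4.13% unthinned).

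Whether *Cp* was tested depended on the filter. At the main settings 1 sum was past the filter's cut, of border-type macrophages, and the gene was left out. A gene that passes through the class where it is high had to differ there, so the filtered fits are given as a description and not as support. Its adjusted p was under the threshold in border-type macrophages in edgeR fits with at least 10 cells a sum (log2 fold change 3.32, SE 0.75, adjusted p = 0.000644, with 3.19% of genes called), with at least 1000 UMIs a cell (3.30, SE 0.77, adjusted p = 0.00344, 6.2% called) and without library 2 (3.46, SE 0.90, adjusted p = 0.00417, 6.04% called). It missed the threshold with gate cuts raised by a factor of 1.5 (2.98, adjusted p = 0.156) and with no filter. The unfiltered fit gave 3.17 (adjusted p = 0.105) with factors from all genes and 3.29 (adjusted p = 0.0539) with factors from the filtered genes, a setting added after the first was seen. Both unfiltered fits, which no filter selects for, missed the threshold. All 6 fits rest on the same 2 libraries of border-type macrophages.

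The haem enzymes were sparse, and over all cells they stood higher in border-type and MHC class II macrophages than in other microglia, without being called. For *Blvrb* the same held in monocytes and neutrophils. *Hmox1*, the enzyme that frees iron from haem, gave 24 UMIs in border-type macrophages, 2.02 per 10000 (1.29 to 3.0), with 1.3 and 2.88 in libraries 3 and 5. Other microglia gave 16 UMIs, 0.516 (0.295 to 0.837), with 0, 0.986, 0.549, 0 and 0.568 in their libraries. MHC class II macrophages lay between, at 1.04 (0.660 to 1.56), as did monocytes, at 0.639 (0.235 to 1.39). Both intervals overlapped that of other microglia. Libraries 1, 2, 3 and 5 of MHC class II macrophages gave 2.35, 0.895, 0.888 and 1.09, with library 1 resting on 2 UMIs and library 2 below its other microglia. Activated microglia and neutrophils held 0 UMIs, and at 40578 and 24413 UMIs a difference from other microglia was not detectable. Dendritic cells held 1 UMI of *Hmox1* in 97028. In the unfiltered edgeR fits *Hmox1* was not called in any class, and in border-type macrophages the log2 fold change was 1.70 and 1.86 (unadjusted p = 0.0679 and 0.0431 with the 2 sets of factors, both adjusted p = 1). In MHC class II macrophages the same fits gave 0.88 and 0.76 (unadjusted p = 0.291 and 0.358).

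*Blvrb* gave 21 UMIs in MHC class II macrophages, 0.951 per 10000 (0.589 to 1.45), and 11 in border-type macrophages, 0.924 (0.461 to 1.65). Other microglia gave 7, at 0.226 (0.0907 to 0.465). Both libraries of border-type macrophages, at 1.14 and 0.768, lay above all 5 of other microglia, at 0, 0, 0.457, 0 and 0.142. The values of 0, in libraries 1, 2 and 4, have upper limits of 1.7, 1.82 and 2.02 per 10000. These limits exceed both border-type values, so a 0 there cannot show a lower level. The contrast rests on the libraries where both classes had UMIs, 7 and 4 in border-type macrophages against 5 and 2 in other microglia. Monocytes stood at 0.959 (0.439 to 1.82) and neutrophils at 2.05 (0.665 to 4.78), no lower than the macrophages. In monocytes 8 of 9 UMIs came from library 5, and in neutrophils 4 of 5 came from 1 cell. *Blvrb* was not called in either unfiltered edgeR fit, with its lowest adjusted p, 0.298, in neutrophils.

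*Slc11a1*, which moves metal ions out of the phagosome, stood at 3.42 per 10000 (interval 2.8 to 4.13) over all other microglia. Every other class but neutrophils was lower. Neutrophils stood at 3.69 (1.69 to 7.0), from 9 UMIs. The 5 libraries of other microglia gave 2.31, 4.93, 3.66, 3.29 and 3.19 per 10000, with 106 UMIs in all. In dendritic cells both libraries of the comparison gave 0 UMIs in 88234, so that with a floor of 3 counts over the group the level was at least 9.99-fold lower than the 3.40 per 10000 of other microglia in the same libraries (edgeR adjusted p = 0.000102). That bound leaves out the counting error of other microglia. *Slc11a1* was lower in 2 of 2 libraries. Libraries 1 and 2 held 1 UMI each in 3 dendritic cells, too few cells to enter the fit, and over all 42 dendritic cells the level was 0.206 (0.025 to 0.745). Dendritic cells were also the deepest class, at a median of 2065 UMIs. Without library 3 or library 5, and with cells of 300 UMIs or sums of 3 cells, *Slc11a1* missed the filter and was not tested. As *Slc11a1* passed the filter partly through other microglia, the unfiltered edgeR fits bear on the fall without that choice: the adjusted p was 5.41e-05 with factors from all genes (0.757% of genes called) and 1.85e-05 with factors from the filtered genes (0.874% called). In every alternative that tested it in dendritic cells, the adjusted p lay between 2.17e-06 and 0.00231.

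In monocytes *Slc11a1* was lower in 4 of 4 libraries, at 0, 0, 2.5 and 1.01 per 10000 in libraries 1, 2, 3 and 5, though library 3 overlapped with the lowest library of other microglia. The log2 fold change was −2.15 (SE 0.81, edgeR adjusted p = 0.0447). That call was lost without library 1, 2 or 4 (adjusted p = 0.075, 0.0928 and 0.0688). The gene was not tested without library 3 or 5, with cells of 300 UMIs or with sums of 3 cells. The call was lost in both unfiltered fits too (adjusted p = 0.124 with 0.905% of genes called, and 0.21 with 0.862%). Over all alternatives that tested it the adjusted p ran from 0.0351, with DESeq2, to 0.282, with cells of at least 1000 UMIs. Border-type macrophages (2.11 in both libraries) lay below all 5 libraries of other microglia, with a log2 fold change of −1.35 (SE 0.83, adjusted p = 0.525). MHC class II macrophages gave 1.18, 0, 2.44 and 2.18 (−1.51, SE 0.70, adjusted p = 0.155). Activated microglia gave 2.51 and 0 in libraries 3 and 5 (−2.06, SE 1.03, adjusted p = 0.664). In neutrophils 9 UMIs came from 4 cells, 5 of them in library 5 and 4 in library 3.

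*Tfrc*, which brings in iron bound to transferrin, had 6 UMIs in 5 of 825 cells. Of these, 5 were in library 5 and 1 in library 3. No class could be told from another at this depth: the upper limits ran from 0.233 per 10000 in other microglia to 1.51 in neutrophils. The 4 hairpins printed above for its 3′ UTR thus belong to the least detected of the 8 mRNAs, and those of *Fth1* and *Ftl1* to the most detected. *Slc40a1*, which also has a hairpin in its 5′ UTR, had 65 UMIs, fewer than *Hmox1*, *Blvrb*, *Slc11a1* and *Cp*, which have none. A link between hairpin and level was not tested.

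Another 62 genes of iron and haem handling, in 7 lists, were measured for context. Of these, 60 had a row, 51 at least 1 UMI and 6 passed the filter. *Flvcr1* and *Flvcr2* were not analysed here. Of 3 genes for granule proteins that bind iron or siderophores, 2 passed it, the siderophore trap *Lcn2* and lactoferrin *Ltf*, each through 3 sums of neutrophils and 1 of other microglia. They stood at 139 and 126 UMIs per 10000 in neutrophils and at 0.677 and 0.419 in other microglia. As the filter took them mainly where they are high, the test is given from the unfiltered edgeR fit with factors from all genes, where 1.77% of genes were called in neutrophils. There *Lcn2* rose by 5.39 on the log2 scale (SE 0.52, adjusted p = 1.09e-21) and *Ltf* by 6.20 (SE 0.56, adjusted p = 8.64e-25). *Lcn2* had 0 UMIs in the 2 libraries of dendritic cells, with an adjusted p of 0.0325 in the filtered fit and of 0.408 and 0.176 in the unfiltered ones.

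Among 19 genes of haem uptake, breakdown and transport, 2 were tested. Haptoglobin *Hp*, which binds free haemoglobin, stood at 14.3 UMIs per 10000 in neutrophils and 0.193 in other microglia. It passed the filter through neutrophils alone, and in the unfiltered fit it rose by 4.44 on the log2 scale (SE 1.01, adjusted p = 0.00134). *Cd163*, the receptor for haemoglobin bound to haptoglobin, stood at 6.05 per 10000 in border-type macrophages and 0.741 in other microglia, with a log2 fold change of 2.91 (SE 0.99, adjusted p = 0.0766) that missed the threshold although the gene passed the filter through border-type macrophages alone. Of 11 genes of iron uptake and export only transferrin *Trf* was tested, and it passed the filter in 14 sums. It fell in dendritic cells (−1.14, SE 0.43, adjusted p = 0.0342), monocytes (−2.67, SE 0.44, adjusted p = 4.23e-06) and neutrophils (−3.29, SE 0.79, adjusted p = 0.00125), from 11.3 per 10000 in other microglia to 5.77, 2.24 and 1.23. The call in dendritic cells, where 33.7% of genes were called, was lost in the unfiltered fits (adjusted p = 0.502 and 0.386), and the calls in monocytes and neutrophils were kept. Of 4 storage and chaperone genes only *Pcbp2*, which delivers iron to ferritin, was tested, and it was not called in any class. None of the 10 regulators, 7 mitochondrial iron genes or 8 Nrf2 targets passed the filter, *Nfe2l2*, the gene of Nrf2 itself, having 248 UMIs.

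**Figure D4:**
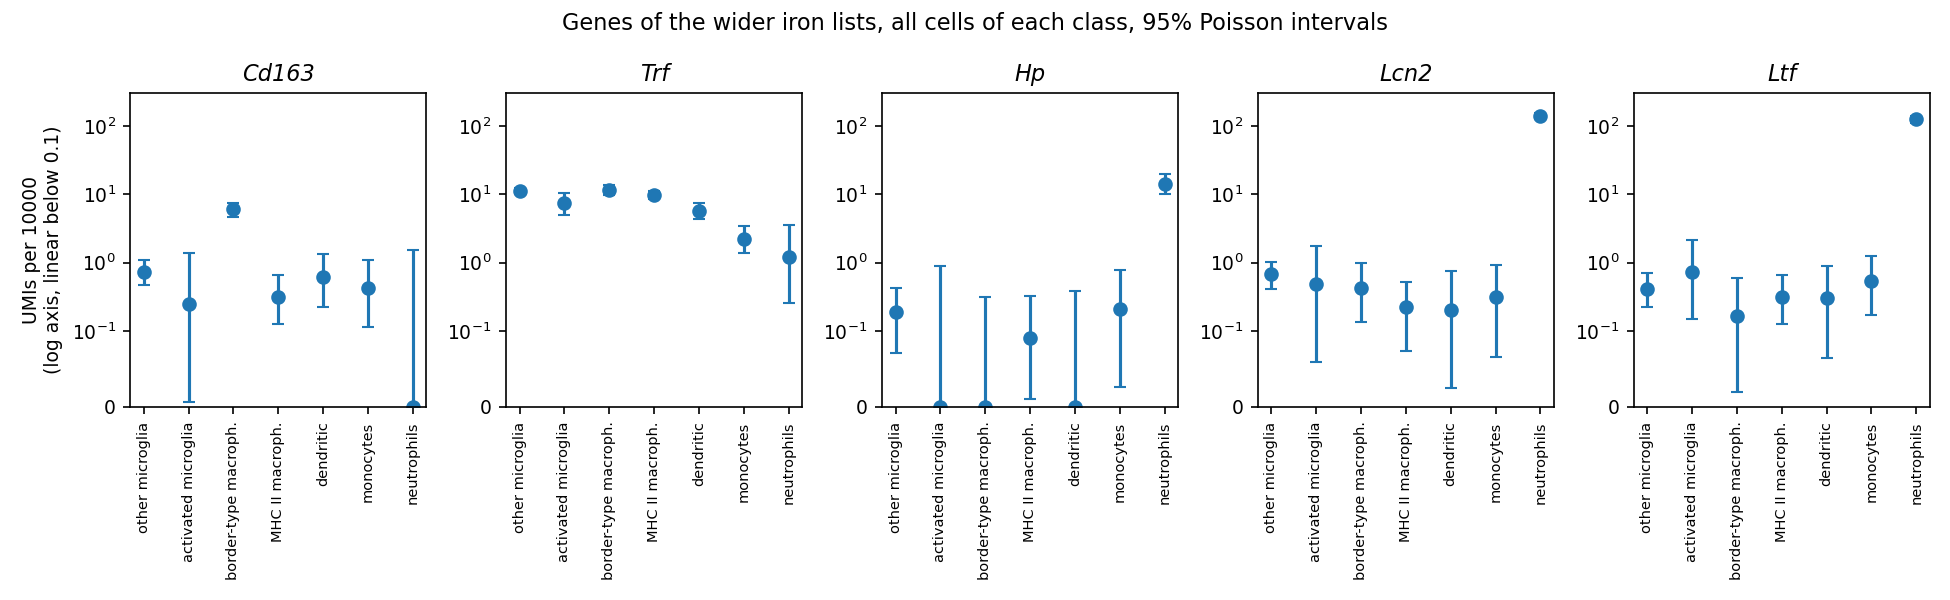
Level (y axis, UMIs per 10000, log axis that is linear below 0.1) of 5 further iron and haem genes in all cells of each class (x axis), with exact Poisson 95% intervals. *Lcn2*, *Ltf* and *Hp* are highest in neutrophils, *Cd163* in border-type macrophages at 6.05, and *Trf* is lowest in monocytes and neutrophils.

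Red cells, which carry most haem of the body, left little trace. Of 6 erythrocyte genes, 5 had no UMI in the kept cells and the sixth had 1 UMI. Markers of astrocytes, a cell type known for *Cp*, summed to 0.084 UMIs per 10000 in border-type macrophages and 0.967 in other microglia. Of these markers *Gfap*, *Aqp4*, *Aldoc* and *Gja1* had 0 UMIs in all kept cells, while the whole list held 57. Neuron markers had 0 UMIs in border-type macrophages. Oligodendrocyte, endothelial and B cell markers summed to 0.588, 0.756 and 3.11 there and to 0.967, 0.87 and 2.74 in other microglia. T or NK cell markers summed to 2.66 in monocytes and 0.161 in other microglia. A source of *Cp* or haem gene mRNA in other cells was not tested.

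For those of the 8 genes with at least 100 UMIs in the gated cells, the genes whose level followed theirs most closely were sought. They were taken from the 750 genes tested, over the 22 UMI sums of the fit, by Pearson's r of log2 CPM. The sums share libraries and depth, and r is a description. For *Fth1* these were *Fth-ps2* (r = 0.945), *Cd14* (0.841) and *Apoe* (0.825). *Fth-ps2* is a pseudogene row that could share reads with *Fth1*, so its r may reflect mapping. *Apoe* is itself among the macrophage genes of the MHC class II gate. For *Ftl1* they were *Gimap3* (0.789), *Tgfbr2* (0.716) and *Clptm1* (0.713), and for *Slc11a1* they were *Itgb5* (0.766), *Timp2* (0.752) and *Cd63* (0.735). For *Cp* they were *Pf4* (0.80), which is itself a marker of the border gate, *C4b* (0.793) and *Vcam1* (0.681).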

How the data were processed

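Single cells were sorted into plates and their mRNA 3′ ends counted by MARS-seq. The values used are the UMI counts that the authors deposited, 1 table a library. The labels list bcl2fastq (version 2.15.0.4) and mm10 for the processing, with no aligner named in the sources at hand. Wells with 1 cell and at least 500 UMIs outside the ERCC spikes were kept. The sort excluded doublets, no doublet caller was run, and cells past several gates stayed out of all comparisons. Gates were sums of marker genes per 10000 UMIs, with cuts set from those sums: neutrophils 1000, microglia 150, border-type 30, dendritic 20, monocytes 30, activated microglia 30, MHC class II 150 with macrophage genes at 100. Up to 110 cells (microglia) lay within 20% of a cut.

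UMI sums of at least 5 cells, 22 in all, were fitted with edgeR 4.0.16 in R 4.3.3 (quasi-likelihood test, TMM, robust, library as block), and SEs were derived from the fold change and F. The scripts were tested on simulated data. The 8 genes and all lists were chosen with earlier results of these data known. Of the wider lists, genes past the threshold and the 3 of highest level were named, while *Cd163*, *Pcbp2* and *Nfe2l2* were added after their values were seen. Alternatives changed the UMI and cell minimums, gates, filter, TMM, block and tool, or left out 1 library. The unfiltered fit was planned and first run with TMM factors from all genes. A version with factors from the filtered genes was added after the values of the 8 genes had been seen, as was the sum of ferritin pseudogenes with their parents. The unfiltered tests of genes of the wider lists were also added later. The fits in which *Cp* was tested were singled out because it was called there. Fitted folds of genes the filter left out were considered only for pairs with an unadjusted p under 0.05 in an unfiltered fit, a rule also set after values were seen.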

Additional observations from a re-analysis of the deposited data

Results flagged for a closer look

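In 22 groups of 4 or 5 libraries, 4 had 1 library that stood apart from the rest by Dixon's criterion. That criterion is made for continuous values, and a group with UMIs in 1 library only is always flagged. The number of flags therefore cannot be set against a chance rate. *Slc40a1* in MHC class II macrophages was at 0.111 UMIs per 10000 in library 3, from 1 UMI, and at 0 in the other libraries. *Hmox1* in the same class was at 2.35 in library 1, from 2 UMIs in 12 cells, and between 0.888 and 1.09 elsewhere. *Tfrc* in library 5 was at 0.142 in other microglia, from 2 UMIs, and at 0.0907 in MHC class II macrophages, from 1 UMI, with 0 in the other libraries of both classes. Each rests on 1 or 2 UMIs.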

How the results depend on the processing

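The library block is the pairing of classes that share a plate. Without it no gene of the 8 was called in monocytes (0 against 1, with 17.9% of all genes called) and the other counts of calls were the same.

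The number of the 8 genes called rose from 0 to 1 in activated microglia with DESeq2 (0.933% of all genes called), in border-type macrophages with cells of 1000 UMIs (6.2%) or sums of 10 cells (3.19%), in MHC class II macrophages with cells of 1000 UMIs (9.75%), and in neutrophils with cells of 300 UMIs (23.9%), without TMM (39.9%) or with no filter and factors from all genes (1.77%). It fell from 1 to 0 in dendritic cells with cells of 300 UMIs (45.2%). It fell from 1 to 0 in monocytes with cells of 300 (34.0%) or 1000 UMIs (18.5%), in both unfiltered fits (0.905% and 0.862%), with sums of 3 (22.2%) or 10 cells (7.84%) and with cuts raised by 1.5 times (12.5%). Leaving out 1 library gave 0 to 1 in border-type macrophages, 0 to 1 in dendritic cells and 0 throughout in monocytes. With sums of 3 cells (*Fth1*) and without TMM (*Ftl1*) 1 gene was called in dendritic cells and monocytes, but not *Slc11a1*. Other counts did not change.

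*Fth1* turned to −0.41 in activated microglia and −0.17 in border-type macrophages with no filter and TMM factors from all genes, while no filter with factors from the filtered genes gave 0.42 and 0.0. It turned to −0.16 in border-type macrophages with sums of 3 cells, and ran from −0.24 to 0.14 there when 1 library was left out. *Ftl1* in dendritic cells turned to 0.21 without TMM, 0.2 with raised cuts and 0.13 without the block, and ran from −0.41 to 0.14 when 1 library was left out. *Fth1* in monocytes turned to 0.27 with cells of 1000 UMIs, 0.19 without TMM, 0.22 with sums of 10 cells and 0.14 with raised cuts. In neutrophils *Fth1* turned to 0.55 with cells of 300 UMIs and 0.09 with DESeq2, *Ftl1* to 1.45 (past the threshold), 0.52 and, with sums of 3 cells, 0.04, and *Slc11a1* to 0.15 with DESeq2 and from −0.26 to 0.14 when 1 library was left out. The cause was not tested. Neutrophils could not be compared with cells of 1000 UMIs.

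Of the levels recomputed under other settings, 250 moved by less than their spread and 30 by more. Without library 3 or library 5 no gene at all was called in activated microglia or border-type macrophages, whose comparisons then rest on 1 library. *Slc40a1*, *Hmox1*, *Blvrb*, *Cp* and *Tfrc* had a UMI in 0.606% to 8.85% of cells, and none of these passed the filter at the main settings.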

Other observations

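Cells outside the classes were not compared. The 102 cells that passed no gate held 32.7 UMIs per 10000 of *Fth1* and 20.5 of *Ftl1*, with 71 UMIs of *Fth1* in 1 cell. Their 17 UMIs of *Cp*, 1.16 per 10000, included 9 from 1 cell, and *Slc40a1* stood at 0.342. The 67 cells that passed several gates held 23.5 of *Fth1*, 15.0 of *Ftl1*, 0.749 of *Slc40a1* and 0.499 of *Cp* per 10000.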
